A study of Mus musculus with 6 samples.

Results

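The NRF2 pathway was represented by 10 genes, picked by symbol from the 25939 genes listed for each library. They were the transcription factor gene Nfe2l2, its inhibitor gene Keap1, and 8 target genes: Hmox1, Nqo1, Gclc, Gclm, Slc7a11, Txnrd1, Srxn1 and G6pdx. RNA was sequenced from vascular smooth muscle cells isolated from mouse aorta and cultured. The cells received trimethylamine N-oxide (TMAO), a metabolite made by the liver from a product of gut bacteria, or a control treatment. Treatment lasted 48 h, and each group has 3 libraries. The sources used here do not give the dose of TMAO, what the Control cells received, or the strain, sex, age or number of the animals. Nothing in the labels says that the 3 samples of a group came from separate animals or cultures, so p-values reflect only how these samples vary, and that variation may be technical.

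NRF2, the protein of Nfe2l2, is held at a low level in unstressed cells because KEAP1 presents it to a CUL3 ubiquitin ligase for destruction. Oxidants and electrophiles modify KEAP1, and NRF2 then accumulates, pairs with small MAF proteins and binds antioxidant response elements in the DNA of its targets, from which the repressor BACH1 can be displaced. The targets make and recycle glutathione and thioredoxin, supply NADPH and break down haem and quinones. In the artery wall the pathway is known above all through haem oxygenase 1, which limits the growth of smooth muscle cells. Because NRF2 is controlled mainly through the stability of its protein, the RNA of its targets is the usual readout of its activity.

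The core of the antioxidant response element, TGACNNNGC, was looked for on both strands in the 250 bases before each start site in RefSeq (GRCm38.p6), since these are the letters that NRF2 and its small MAF partner read. The search covered this motif alone. The set of RefSeq start sites used here held 8 of the 10 genes, with 10 start sites. Hmox1 and Gclc were missing from this set, so their windows were not searched. Of the 8 genes 4 had the core in a window: Nfe2l2, Gclm, Txnrd1 and G6pdx. Of all 27025 genes in this set, 11.5% had it in a window, and among all 32851 windows of this length 10.2% held it. The stretches with the core are shown 5′ to 3′ on the strand of the gene, with the core in capitals. Inside annotated exons, as for Nfe2l2 and G6pdx, only the core and 10 bases at either side are given.
Nfe2l2, chr2:75704885-75704913, minus strand: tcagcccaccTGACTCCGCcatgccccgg
Gclm, chr3:122245307-122245556, plus strand: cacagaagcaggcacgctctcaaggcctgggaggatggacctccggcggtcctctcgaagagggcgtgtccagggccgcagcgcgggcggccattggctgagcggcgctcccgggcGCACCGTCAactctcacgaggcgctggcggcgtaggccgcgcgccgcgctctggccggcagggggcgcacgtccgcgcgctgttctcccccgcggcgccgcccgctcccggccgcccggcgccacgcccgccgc
Txnrd1, chr10:82859009-82859178, plus strand: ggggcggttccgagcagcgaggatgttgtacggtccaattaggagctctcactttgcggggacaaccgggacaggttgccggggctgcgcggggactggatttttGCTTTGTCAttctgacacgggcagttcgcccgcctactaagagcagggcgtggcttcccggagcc
G6pdx, chrX:74428919-74428947, minus strand: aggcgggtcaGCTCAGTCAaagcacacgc
The core lay 240, 134, 92 and 57 bases before the start site in Nfe2l2, Gclm, Txnrd1 and G6pdx. These RefSeq start sites can differ from the ends of the gene spans given below. The stretches of Txnrd1 and G6pdx lie inside those spans. That of Nfe2l2 lies beyond its span, where the annotated exon is of another gene. In Nfe2l2 it read forward along the gene, and in the other 3 genes it lay on the opposite strand, so that it appears above as its reverse complement, GCNNNGTCA. Txnrd1 has 3 start sites in this set and the core stood before 1 of them. A match describes the letters only and is not evidence of binding.

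After TMAO none of the 10 genes passed the threshold of the comparison. Expression was deposited in FPKM, fragments scaled to the exon length of the gene and to the size of the library, and compared with limma on log2(FPKM + 1) at a Benjamini-Hochberg adjusted p of 0.05 over the 11062 genes that reached 1 FPKM in 3 or more libraries. All 10 genes passed this filter on low values and were above 0 in every library. Of all tested genes 20 passed the limma threshold, which is 0.181%. At an unadjusted p below 0.05, 1 of the 10 NRF2 pathway genes was found, Hmox1, beside 13.1% of all tested genes. With voom, a test on read counts recovered from the FPKM values, 0 of the 10 passed after adjustment, and 1, again Hmox1, had an unadjusted p below 0.05. Of all 10893 genes in the voom fit 0.89% passed after adjustment, and 14.1% had an unadjusted p below 0.05. Fold changes were positive for 6 genes and negative for 4, with a median log2 fold change of 0.04 beside 0.02 for all tested genes. The total of 20 genes was 13 without TMAO replicate 1, 58 without TMAO replicate 2 and 11 without Control replicate 3, and 0 of the 10 NRF2 pathway genes passed in each of these fits.

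**Figure D1:**
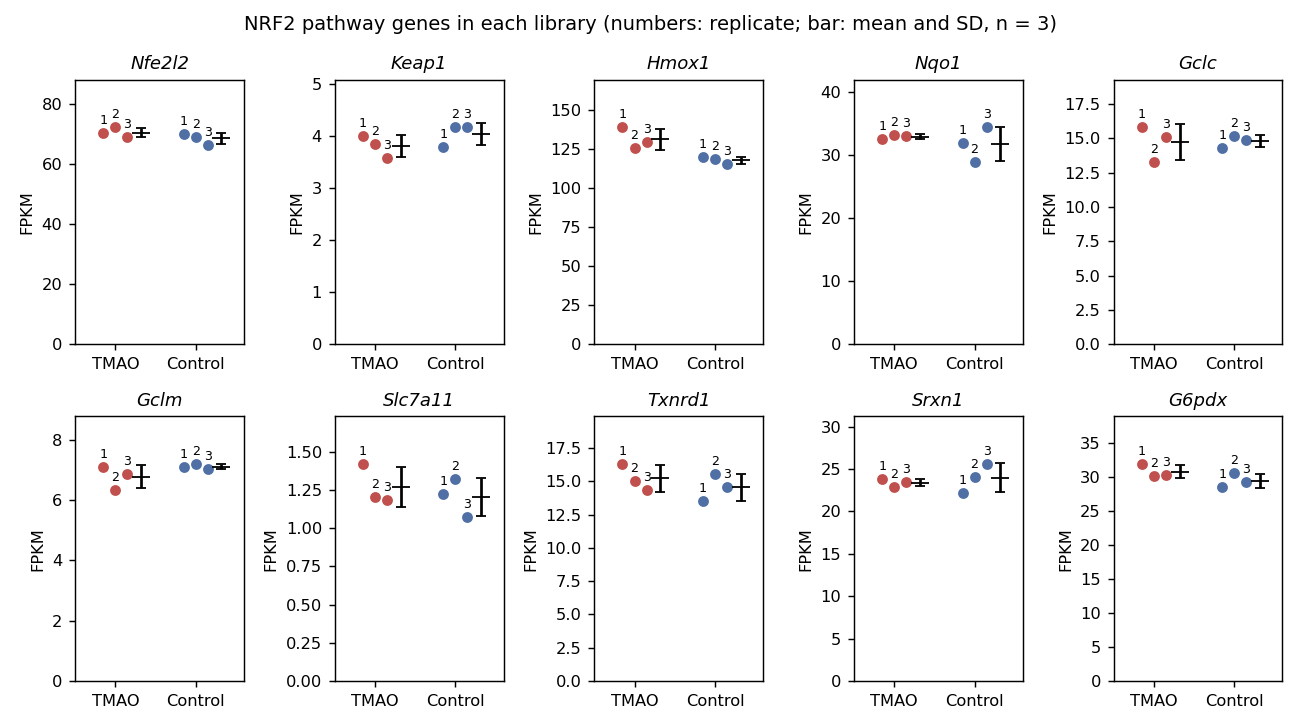
FPKM of the 10 NRF2 pathway genes in each library, with the 3 TMAO libraries left of the 3 Control libraries in every panel, the replicate number above each point, and the mean and SD (n = 3) as a bar. For Hmox1 the TMAO points, 125.8 to 138.7 FPKM, lie above the Control points, 115.3 to 119.7 FPKM, and in the other 9 panels the groups overlap.

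Nfe2l2 (ENSMUSG00000015839, chromosome 2, 75675513 to 75704641, minus strand of mm10) stood at 70.24, 72.2 and 69.06 FPKM in TMAO 1 to 3 and at 70, 69.09 and 66.49 FPKM in Control 1 to 3. The groups overlapped and all 6 libraries lay within a narrow band. The means were 70.5 ± 1.59 FPKM in TMAO and 68.5 ± 1.82 FPKM in Control (SD, n = 3 each), a difference of 0.04 ± 0.043 in log2 (SE; adjusted p = 0.746 in limma). Its 95% interval ran from -0.05 to 0.14, the narrowest of the 10 genes.

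Keap1 (ENSMUSG00000003308, chromosome 9, 21229730 to 21239361, minus strand), which codes for the oxidant sensor that hands NRF2 to the ubiquitin ligase, had 3.997, 3.834 and 3.568 FPKM in TMAO 1 to 3 and 3.789, 4.159 and 4.159 FPKM in Control 1 to 3. TMAO 3 was lowest, and Control 1 lay among the TMAO libraries. On the log2 scale the difference was -0.07 ± 0.073 (95% interval -0.23 to 0.09, limma adjusted p = 0.745). Within a library there was far more Nfe2l2 than Keap1 transcript per length: the ratio of their FPKM values was 17.6, 18.8 and 19.4 in TMAO 1 to 3 and 18.5, 16.6 and 16.0 in Control 1 to 3, and the groups overlapped. A weak gene on the opposite strand, Gm16754, overlaps 10.9% of the Keap1 exon sequence. The sources used here do not say whether the counting used strand.

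Hmox1 (ENSMUSG00000005413, chromosome 8, 75093621 to 75100589, plus strand) codes for haem oxygenase 1, which cleaves haem to biliverdin, iron and carbon monoxide. It was the most abundant of the 10 genes, and it stood at 138.7, 125.8 and 129.2 FPKM in TMAO 1 to 3 and at 119.7, 118.4 and 115.3 FPKM in Control 1 to 3. The groups did not overlap, with TMAO 1 highest and Control 3 lowest. Among all tested genes 12.4% had every TMAO library above every Control library and 6.23% had every TMAO library below, and of the 10 NRF2 pathway genes 1 was above and none below. The mean was 131 ± 6.69 FPKM in TMAO and 118 ± 2.26 FPKM in Control, a difference of 11.4%. The log2 fold change was 0.15 ± 0.047, with a 95% interval from 0.05 to 0.26, and the gene ranked 401 by p. It did not pass, with a limma adjusted p = 0.21, and at its standard error a rise had to reach 22.0% to pass. Under the 15 alternative settings the log2 fold change lay between 0.11 and 0.18 and the adjusted p between 0.137 and 0.502.

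Hmox2, which codes for the constitutive haem oxygenase, was less abundant than Hmox1 in every library. The ratio of Hmox1 to Hmox2 was 6.56, 5.83 and 6.69 in TMAO 1 to 3 and 5.65, 5.87 and 5.51 in Control 1 to 3. On this scale the groups overlapped, since TMAO 2 lay just under Control 2. Cdip1, on the opposite strand and at a mean of 1.96 FPKM, overlaps 40.2% of the Hmox2 exon bases, so the level of Hmox2 and this ratio are uncertain.

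Nqo1 (ENSMUSG00000003849, chromosome 8, 107388225 to 107403206, minus strand) codes for a reductase that turns quinones into hydroquinones without a radical step, and is among the standard readouts of NRF2. Its values were 32.46, 33.22 and 33.03 FPKM in TMAO 1 to 3 and 31.95, 28.94 and 34.37 FPKM in Control 1 to 3. The TMAO libraries all lay between Control 2, the lowest, and Control 3, the highest. The log2 fold change was 0.05 ± 0.061 (95% interval -0.08 to 0.19, limma adjusted p = 0.764), and without Control replicate 2 it was -0.01.

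Glutathione synthesis is limited by glutamate-cysteine ligase, whose catalytic subunit is encoded by Gclc and whose modifier subunit by Gclm. Gclc (ENSMUSG00000032350, chromosome 9, 77754535 to 77794485, plus strand) had 15.8, 13.27 and 15.07 FPKM in TMAO 1 to 3 and 14.31, 15.19 and 14.88 FPKM in Control 1 to 3. Both the highest and the lowest value were TMAO libraries. This gave a log2 fold change of -0.01 ± 0.067 (95% interval -0.16 to 0.14, limma adjusted p = 0.967).

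Gclm (ENSMUSG00000028124, chromosome 3, 122245557 to 122270732, plus strand) had 7.099, 6.338 and 6.871 FPKM in TMAO 1 to 3 and 7.082, 7.186 and 7.037 FPKM in Control 1 to 3. TMAO 2 was lowest for both ligase subunits, and the Control libraries of Gclm were close together. For Gclm the log2 fold change came to -0.06 ± 0.064 (95% interval -0.20 to 0.08, limma adjusted p = 0.739). The ratio of Gclc to Gclm was 2.23, 2.09 and 2.19 in TMAO 1 to 3 and 2.02, 2.11 and 2.12 in Control 1 to 3, so the 2 subunits kept nearly the same proportion in all libraries and the groups overlapped. Other genes share 4.7% (Gm17494, opposite strand) and 3.9% (Gm6061, same strand) of the exon bases of Gclm.

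Slc7a11 (ENSMUSG00000027737, chromosome 3, 49892526 to 50443614, minus strand) codes for the cystine and glutamate exchanger that brings in the cysteine for glutathione, and answers to ATF4 as well as to NRF2. It was the lowest of the 10 genes, at 1.421, 1.207 and 1.188 FPKM in TMAO 1 to 3 and 1.225, 1.321 and 1.073 FPKM in Control 1 to 3. TMAO 1 was highest and Control 3 lowest, and between them Control 1 and 2 lay above TMAO 2 and 3. These values rest on 327, 268 and 248 reads in TMAO 1 to 3 and 256, 277 and 251 reads in Control 1 to 3. Its log2 fold change of 0.04 ± 0.089 had the widest 95% interval of the 10 genes, -0.16 to 0.24 (limma adjusted p = 0.886). The pseudocount of 1 shrinks changes at this level, and with voom on the recovered reads the log2 fold change was 0.08 (voom adjusted p = 0.779).

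Txnrd1 (ENSMUSG00000020250, chromosome 10, 82833951 to 82897712, plus strand) codes for the cytosolic thioredoxin reductase, a selenoprotein. Its level was 16.3, 15.05 and 14.32 FPKM in TMAO 1 to 3 and 13.56, 15.56 and 14.56 FPKM in Control 1 to 3. The libraries of the 2 groups alternated between the highest, TMAO 1, and the lowest, Control 1. The log2 fold change was 0.06 ± 0.067 (95% interval -0.09 to 0.21, limma adjusted p = 0.757). Txnrd2, which codes for the mitochondrial enzyme, was much lower per length: the ratio of Txnrd1 to Txnrd2 was 20.4, 21.1 and 20.5 in TMAO 1 to 3 and 20.8, 23.4 and 20.7 in Control 1 to 3.

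Srxn1 (ENSMUSG00000032802, chromosome 2, 152105516 to 152111376, plus strand) codes for sulfiredoxin, which repairs overoxidised peroxiredoxins. It had 23.8, 22.9 and 23.49 FPKM in TMAO 1 to 3 and 22.18, 24.1 and 25.57 FPKM in Control 1 to 3. As for Nqo1, the TMAO libraries lay inside the range of the Control libraries. Its log2 fold change was -0.03 ± 0.058 (95% interval -0.16 to 0.10, limma adjusted p = 0.873).

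G6pdx (ENSMUSG00000031400, chromosome X, 74409483 to 74429194, minus strand) codes for the enzyme that opens the pentose phosphate pathway and supplies NADPH to both the glutathione and the thioredoxin system. Its values were 31.95, 30.25 and 30.34 FPKM in TMAO 1 to 3 and 28.52, 30.58 and 29.38 FPKM in Control 1 to 3. Control 2 lay above TMAO 2 and TMAO 3, so the groups overlapped. The log2 fold change was 0.06 ± 0.049 (95% interval -0.05 to 0.17, limma adjusted p = 0.639). Ikbkg, which runs the other way and averaged 5.66 FPKM, overlaps 13.6% of the G6pdx exon sequence.

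**Figure D2:**
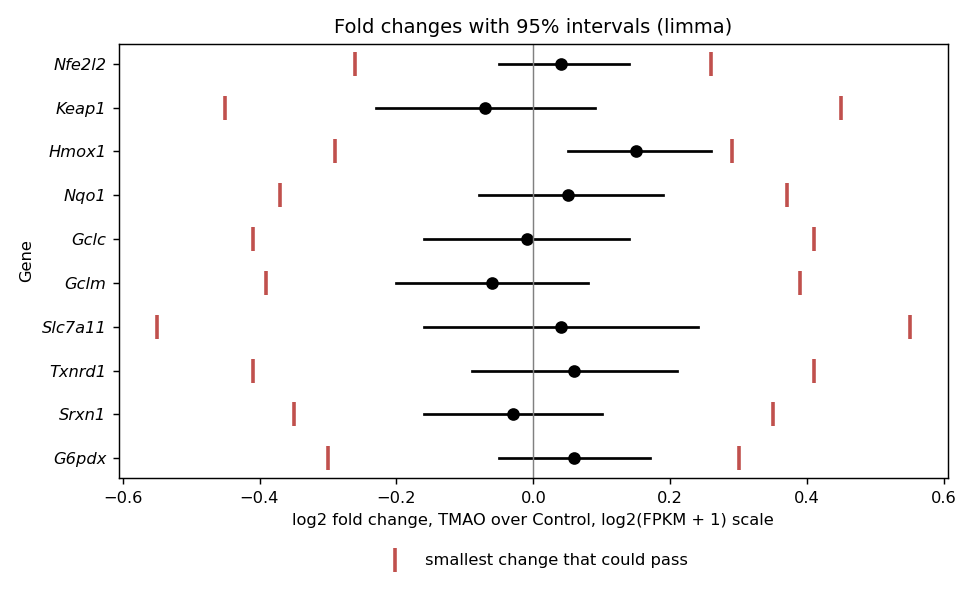
Log2 fold changes of the 10 NRF2 pathway genes (TMAO over Control, on the scale of log2(FPKM + 1)) as points with 95% intervals from limma; the red ticks mark the smallest change in either direction that could have passed at the standard error of that gene. The interval of Hmox1, 0.05 to 0.26, lies above 0 and short of its tick at 0.29, and the other 9 intervals hold 0 and lie between -0.23 and 0.24.

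The intervals give the range of changes that the 6 libraries allow. For the 9 genes other than Hmox1 they held 0, and on the scale of the test they reached no lower than -14.8%, for Keap1, and no higher than 18.1%, for Slc7a11. The smallest rise that could have passed ranged over the 10 genes from 20% for Nfe2l2 to 46.2% for Slc7a11 on the same scale of FPKM + 1. The added 1 hides part of a change in a weak gene. Taken from the Control mean, this smallest rise in FPKM itself would be 20.3% for Nfe2l2 and 84.5% for Slc7a11. In FPKM the upper bound of Slc7a11 would be 33.1%. The lower bounds in FPKM would be -18.7% for Slc7a11 and -18.5% for Keap1. With 1 library left out the log2 fold changes of the 9 genes stayed between -0.10, for Keap1, and 0.11, for Nqo1 and Txnrd1. A p above the threshold does not show that a gene had the same level in both groups.

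The order of the levels, read per length as mean FPKM over the 6 libraries, was Hmox1 (125), Nfe2l2 (69.5), Nqo1 (32.3), G6pdx (30.2), Srxn1 (23.7), Txnrd1 (14.9), Gclc (14.8), Gclm (6.94), Keap1 (3.92) and Slc7a11 (1.24). Neighbours in this order were apart in all 6 libraries except for 2 pairs. Nqo1 exceeded G6pdx in 5 of 6 libraries with overlapping ranges, and Txnrd1 exceeded Gclc in 3 of 6. Hmox1 stood at the percentile 95.8 of all tested genes by level and Slc7a11 at 5.4. Every enzyme gene of the 10 lay above the median level of the tested genes.

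Precision differed among the 10 genes. Mean reads per library ran from 271 for Slc7a11 to 4148 for Nfe2l2. The spread between libraries of a group, as a coefficient of variation, was 2.46% for Nfe2l2, where counting alone gives 1.55%, and 10.28% for Slc7a11, where counting gives 6.07%. Keap1 was the single gene whose spread, 5.50%, did not exceed its counting error of 5.88%. Txnrd1 exceeded its counting error by the largest factor, 2.75. Of the 10 genes, 5 were highest in TMAO 1 (Hmox1, Gclc, Slc7a11, Txnrd1 and G6pdx). The share of all tested genes highest in TMAO 1 was not counted, so this describes these genes only.

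Markers of cell types were read beside these results. Of 8 contractile smooth muscle markers 5 averaged at least 1 FPKM, while Tagln, Cnn1 and Myh11 averaged below 1 FPKM in both groups. Gm48529, on the opposite strand, overlaps 62.4% of the Tagln exon bases, so the level of Tagln is uncertain. The contractile sum overlapped, at 578 to 596 FPKM in TMAO and 593 to 597 FPKM in Control, and most of it was Acta2, at 483 ± 8.68 FPKM in TMAO and 487 ± 2.79 FPKM in Control. Des was above in every TMAO library, at 1.53 ± 0.294 FPKM in TMAO and 1.11 ± 0.17 FPKM in Control (limma adjusted p = 0.344), and Myl9 below, at 94.7 ± 2.04 FPKM in TMAO and 99.1 ± 0.433 FPKM in Control (limma adjusted p = 0.535). The summed level of 6 fibroblast markers was 210 to 229 FPKM in TMAO and 232 to 264 FPKM in Control. Col1a1 made up most of it, at 163 ± 7.8 FPKM in TMAO and 185 ± 18.2 FPKM in Control (limma adjusted p = 0.306), and was the single tested fibroblast marker whose groups did not overlap. Pdgfra averaged 23.8 FPKM in TMAO and 26.5 FPKM in Control (limma adjusted p = 0.293). Lum averaged 3.72 FPKM in TMAO and 4.4 FPKM in Control (limma adjusted p = 0.418). The means of Dcn and Dpt were higher in TMAO, by 3.5% and 5.1%. The 7 listed endothelial markers summed to 12.8 to 13.3 FPKM in TMAO and 15.6 to 16.9 FPKM in Control. Nearly all of the endothelial sum came from Emcn (limma adjusted p = 0.0504), and the defining markers Pecam1 and Cdh5 were near 0, at 0.0717 and 0.0344 FPKM in TMAO and 0.0519 and 0.0242 FPKM in Control, with Cdh5 at 0 in at least 1 library. The macrophage sum overlapped, at 73.9 to 82.3 FPKM in TMAO and 76.6 to 94.6 FPKM in Control, and Lyz2 made up most of it. Of 8 macrophage markers 3 averaged at least 1 FPKM, Lyz2, Cd68 and C1qa. Cd68 averaged 4.28 ± 0.59 FPKM in TMAO and 4.17 ± 0.691 FPKM in Control. C1qa averaged 2.78 ± 0.522 FPKM in TMAO and 2.58 ± 0.664 FPKM in Control. Adgre1 averaged 0.501 FPKM in TMAO and 0.51 FPKM in Control. The leukocyte marker Ptprc averaged 0.0401 FPKM in TMAO and 0.0399 FPKM in Control. The part of these cell types in the values of Hmox1 and the other genes was not tested, and fewer cells of a type and less RNA per cell cannot be told apart.

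Around the 10 genes, 7 lists of further pathway genes, named by their roles, held 117 genes, of which 114 were listed and 96 tested. None of the 96 passed with limma. At an unadjusted p below 0.05 there were 24 (25.0%, beside 13.1% of all tested genes), and the groups did not overlap for 25 genes with TMAO higher (26.0%, beside 12.4%) and for 5 with TMAO lower (5.21%, beside 6.23%). Voom on the recovered reads called 4 of the genes, Ftl1, Prdx6, Mafg and H6pd, and limma with a filter of 5 FPKM called 2, Ftl1 and Prdx6. These are 4.17% of the 96 list genes in the voom fit, beside 0.89% of all its genes, and 2.53% of the 79 list genes with the filter of 5 FPKM, beside 0.928% of all genes under it. Under every other alternative 0 of the list genes passed. The lists were chosen with earlier results of these data known, so the shares describe these genes only. The same holds for the counts of positive fold changes per list below. Such a count was not made over all tested genes, whose median log2 fold change was 0.02.

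**Figure D3:**
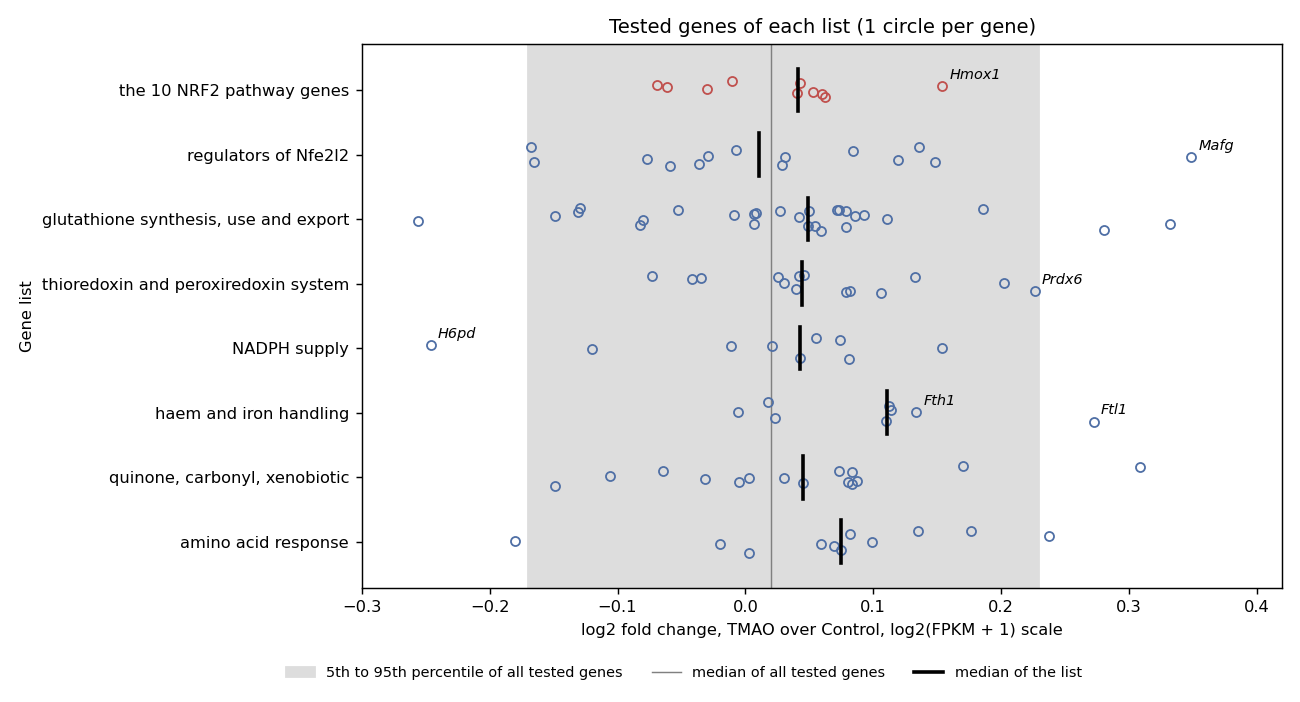
Log2 fold changes (TMAO over Control, on the scale of log2(FPKM + 1)) of the tested genes in the NRF2 set and in 7 further lists, 1 circle per gene, with the median of each list as a black bar and the range from the 5th to the 95th percentile of all tested genes, -0.17 to 0.23, in grey. The NRF2 genes lie inside the grey band, and the haem and iron list has the highest median, 0.11.

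The regulators of NRF2 were tested for 14 of 16 genes, 7 of them with positive fold changes, and their median log2 fold change was 0.01. Mafg, which codes for a small MAF partner of NRF2, had 9.175, 7.248 and 7.927 FPKM in TMAO 1 to 3 and 5.992, 6.528 and 5.894 FPKM in Control 1 to 3. The groups did not overlap, and the difference of the means was 32.2%. Its log2 fold change was 0.35 ± 0.083 (95% interval 0.17 to 0.53, limma adjusted p = 0.134), and voom gave 0.40 with a voom adjusted p = 0.0294.

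Sqstm1, whose protein p62 can draw KEAP1 away from NRF2, had 103.7, 99.38 and 100.7 FPKM in TMAO 1 to 3 and 88.63, 94.17 and 93.51 FPKM in Control 1 to 3 (log2 fold change 0.14, limma adjusted p = 0.227). Mrnip, on the opposite strand, overlaps 17.3% of its exon bases. Bach1, the repressor of Hmox1, averaged 6.45 ± 0.331 FPKM in TMAO and 5.72 ± 0.22 FPKM in Control (log2 fold change 0.15, limma adjusted p = 0.372). Sqstm1 and Bach1 had all TMAO libraries above all Control libraries. Cul3, the scaffold of the ligase that removes NRF2, averaged 22.0 ± 0.964 FPKM in TMAO and 24.8 ± 1.99 FPKM in Control (-0.17, limma adjusted p = 0.303), and the related factor gene Nfe2l1 averaged 25.9 ± 0.773 FPKM in TMAO and 29.2 ± 1.97 FPKM in Control (-0.17, limma adjusted p = 0.254). For these 2 genes all TMAO libraries lay below all Control libraries. Skp1a, the most abundant gene of the list, differed by -0.04 on the log2 scale (limma adjusted p = 0.798).

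Haem and iron genes, on which the iron set free by haem oxygenase bears, had the highest median of the 7 lists, a log2 fold change of 0.11 over 8 tested genes, 7 of them positive and 0 past the limma threshold. The ferritin light chain gene Ftl1 had 239.4, 236.2 and 233.5 FPKM in TMAO 1 to 3 and 182.7, 201.7 and 202.8 FPKM in Control 1 to 3. The groups lay well apart, with a difference of the means of 20.8%. Its log2 fold change was 0.27 ± 0.049 with a limma adjusted p = 0.0669. This became adjusted p = 0.0334 with a filter of 5 FPKM and adjusted p = 0.00773 with voom. Ftl1 did not pass under any other alternative. The limma adjusted p was 0.126 with quantile normalization, 0.153 with median-ratio size factors and 0.341 with no filter. With 1 library left out it was 0.0728 to 0.17. Ferritin genes have many near-identical copies in the mouse genome, and 26.5% of the exon bases of Ftl1 are shared with Gm10252 on the opposite strand, so its level is uncertain. The heavy chain gene Fth1, uncertain for the same kind of copies, averaged 1980 ± 87.8 FPKM in TMAO and 1800 ± 52.7 FPKM in Control (log2 fold change 0.13, limma adjusted p = 0.255). Slc48a1, which codes for a haem transporter, averaged 49.4 ± 1.33 FPKM in TMAO and 45.6 ± 0.614 FPKM in Control (0.11, limma adjusted p = 0.303).

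In the thioredoxin and peroxiredoxin system 11 of 14 tested genes had positive fold changes, the median was 0.04 and 0 passed with limma. Prdx6, which codes for a peroxiredoxin that also acts on phospholipid peroxides, had 68, 68.1 and 71.86 FPKM in TMAO 1 to 3 and 58.88, 58.96 and 59.43 FPKM in Control 1 to 3. The Control libraries were nearly equal and all TMAO libraries lay above them, by 17.3% in the means. This is 0.23 ± 0.042 on the log2 scale (limma adjusted p = 0.0792), with an adjusted p = 0.0361 under a filter of 5 FPKM and an adjusted p = 0.0134 with voom. Prdx6 passed under no other alternative. Its limma adjusted p was 0.0716 with quantile normalization, 0.176 with median-ratio size factors and 0.313 with no filter. With 1 library left out it was 0.0728 to 0.25. Txnip, the inhibitor of thioredoxin, averaged 31.4 ± 2.97 FPKM in TMAO and 27.1 ± 1.18 FPKM in Control (0.20, limma adjusted p = 0.245; 0.13 without TMAO replicate 1), and Prdx5 averaged 123 ± 3.26 FPKM in TMAO and 112 ± 5.62 FPKM in Control (0.13, limma adjusted p = 0.277). Genes on the opposite strand overlap 19.4% of the exon bases of Txnip (Gm15441) and 19.1% of those of Prdx5 (Trmt112, at a mean of 49.6 FPKM). Thioredoxin itself, Txn1, the most abundant gene of the list, averaged 564 ± 33.9 FPKM in TMAO and 548 ± 18.0 FPKM in Control (limma adjusted p = 0.794).

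Genes of NADPH supply pointed in both directions. H6pd, which codes for the counterpart of G6pdx in the endoplasmic reticulum, had 59.08, 52.43 and 53.57 FPKM in TMAO 1 to 3 and 63.48, 70.91 and 62.03 FPKM in Control 1 to 3. All TMAO libraries lay below all Control libraries, with a difference of -0.25 ± 0.062 in log2 (limma adjusted p = 0.152; voom adjusted p = 0.0383). Taldo1, the transaldolase gene of the pentose phosphate pathway, averaged 71.6 ± 2.76 FPKM in TMAO and 64.2 ± 1.81 FPKM in Control (0.15, limma adjusted p = 0.207). Malic enzyme (Me1) had -0.12 (limma adjusted p = 0.42; -0.075 without Control replicate 2) and the isocitrate dehydrogenase gene Idh1 0.04 (limma adjusted p = 0.703). Of the 9 tested genes 6 had positive fold changes and 0 passed.

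Glutathione genes beyond the ligase had a median log2 fold change of 0.05 over 27 tested of 35, with 0 past the limma threshold. The peroxidase gene Gpx8 of the endoplasmic reticulum averaged 430 ± 20.9 FPKM in TMAO and 471 ± 21.2 FPKM in Control (-0.13, limma adjusted p = 0.308). Gpx1, the most abundant gene of the list, averaged 566 ± 17.2 FPKM in TMAO and 536 ± 10 FPKM in Control (0.08, limma adjusted p = 0.46). The glutathione transferase gene Gstz1 had 0.19 (limma adjusted p = 0.326). Another, Gstm2, had 0.11 (limma adjusted p = 0.336) and can share reads with its close paralogs.

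Quinone, carbonyl and xenobiotic metabolism had 0 of 15 tested genes past the limma threshold and a median of 0.05. Ugdh, which makes the sugar donor for glucuronidation, had 39.84, 38.39 and 39.75 FPKM in TMAO 1 to 3 and 34.35, 34.77 and 35.37 FPKM in Control 1 to 3. The TMAO libraries lay above the Control libraries, by 0.17 ± 0.044 on the log2 scale (limma adjusted p = 0.154). The aldehyde oxidase gene Aox1 had 0.31 (limma adjusted p = 0.28), which was 0.20 without TMAO replicate 1, 0.49 with a pseudocount of 0.1 and 0.53 with voom; it is a weak gene, at 2.089, 1.277 and 1.627 FPKM in TMAO 1 to 3 and 1.058, 1.199 and 1.15 FPKM in Control 1 to 3. The aldose reductase gene Akr1b3 had -0.15 (limma adjusted p = 0.344) and the abundant epoxide hydrolase gene Ephx1 averaged 182 ± 6.98 FPKM in TMAO and 181 ± 2.0 FPKM in Control (limma adjusted p = 0.984).

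The amino acid response, which shares Slc7a11 with NRF2 through ATF4, had 0 of 11 tested genes past the limma threshold, 9 positive fold changes and a median of 0.07. Asns, the asparagine synthetase gene, averaged 130 ± 1.94 FPKM in TMAO and 118 ± 2.17 FPKM in Control (0.14, limma adjusted p = 0.206). Ddit3, a transcription factor gene of this response, had 0.18 (limma adjusted p = 0.282) and Psat1, of serine synthesis, 0.07 (limma adjusted p = 0.523). Slc7a5, which codes for an exchanger of large neutral amino acids, averaged 16.4 ± 0.869 FPKM in TMAO and 18.7 ± 0.62 FPKM in Control (-0.18, limma adjusted p = 0.221).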

How the data were processed

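The authors deposited 1 table per library with gene identifiers, symbols and FPKM values; the header of Control 1 spells the unit PKM. Per the submitters' processing notes, Trimmomatic, HISAT2, Cufflinks, HTSeq and mm10 were used, with no versions. The labels' protocols name a stranded poly(A) kit. Libraries were grouped by title. Exon lengths from GENCODE M21 (mm10) turned FPKM into whole reads, within 0.01, for 25499 of 25885 annotated genes (98.5%), with implied totals of 14991252 to 16806728 reads per library.

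FPKM were compared with limma 3.58.1 (R 4.3.3; trended, robust variance) on log2(FPKM + 1), for genes reaching 1 FPKM in 3 or more libraries. The smallest passing change uses the largest p among called genes. The named genes were the 10 of the pathway and, per further list, the 3 smallest p, the most abundant gene and 4 fixed regulators. The members and lists were chosen with earlier results of these data known. Alternatives were 2 normalizations, 3 filters, a pseudocount of 0.1, a variance that is not robust, the replicate block, voom, and each library left out. Scripts were tested on simulated data. No library repeated another of its own group by a chi-square comparison of reads, and libraries of different groups were not compared in this way. Python 3.11.15, pandas 2.3.3, scipy 1.17.1 and matplotlib 3.10.9 made tables and figures.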

Additional observations from a re-analysis of the deposited data

How the results depend on the processing

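None of the 10 NRF2 pathway genes passed the threshold under any of the 15 alternatives in which it was tested; Keap1 and Slc7a11 are below the filter of 5 FPKM, which tested 8 of the 10. The count over all tested genes, 20, was 0 with no filter, 57 with a filter of 5 FPKM and 97 with voom, and 11 to 58 when 1 library was left out. The count over the 7 further lists, 0, was 2 with a filter of 5 FPKM and 4 with voom. A stricter filter adjusts over fewer genes and also fits the variance anew on them. The cause was not tested for the filter or for voom. Of 581 values of 39 named genes under the alternatives, 560 kept direction and side, 6 passed that had not, and 15 changed sign, in 7 genes, all with values near 0. Under quantile normalization the log2 fold change was -0.012 for Slc7a11, -0.010 for Ephx1 and -0.016 for Txn1, and with median-ratio size factors -0.037 for Ephx1 and -0.000 for Txn1. With these size factors each of the 39 named genes had a lower log2 fold change than in the main fit. The shift was thus not particular to the 10 NRF2 pathway genes. The log2 fold change was 0.001 beside 0.040 for Nfe2l2, 0.114 beside 0.154 for Hmox1 and 0.024 beside 0.063 for G6pdx. For genes outside the 10 it was 0.233 beside 0.272 for Ftl1 and -0.285 beside -0.246 for H6pd. The shares of genes without overlap between groups were not counted again with these size factors. With 1 library left out the ranges were -0.010 to 0.110 for Nqo1, -0.060 to 0.057 for Gclc, -0.083 to 0.016 for Srxn1, -0.004 to 0.080 for Slc7a11, -0.024 to 0.031 for Ephx1, -0.062 to 0.008 for Skp1a and -0.002 to 0.085 for Txn1. The replicate numbers are not stated to pair libraries, and deviations of same-numbered libraries correlated at -0.086, -0.104 and 0.056, with 1 of 3 TMAO libraries correlating best with its own number; with the replicate block 22 genes passed, 0 of the 10 among them. Slc7a11 and Keap1 have the fewest reads, which limits what can be said of them.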
